A study of Arabidopsis thaliana with 20 samples.

Results

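Transcripts of the mitochondrial genome were examined in root cells of Arabidopsis thaliana, taking every row of the deposited table whose identifier starts with ATMG and that reached 1 FPKM in at least 2 of the 20 libraries. FPKM is the number of sequenced fragments per kilobase of transcript, scaled to the library's mapped fragments. The rule kept 65 of the 141 ATMG rows, out of 33201 genes in the table. All groups share 1 background: Col-0 with PET111:GFP, which marks columella cells. At 3, 4, 5, 6 or 7 days of age, root tips were cut into a section labelled as the meristematic zone (MZ) and 1 labelled as the elongation zone (EZ). The sections were digested to protoplasts, and the cells without GFP were kept by sorting. Each of the 10 groups of zone and age has 2 biological replicates, and no other treatment is labelled.

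The genome of a plant mitochondrion encodes a small core of the respiratory chain and of ATP synthase, factors of cytochrome c maturation, some ribosomal proteins, ribosomal and transfer RNAs, and many open reading frames without a known product. Its transcripts are made by nuclear-encoded phage-type RNA polymerases, and nuclear-encoded proteins splice, edit and trim them. Arabidopsis also carries a large copy of the mitochondrial genome inserted in nuclear chromosome 2, so that a read can match both places.

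The annotation at hand gives ATMG identifiers a product only through notes on their nuclear copies. These notes name protein matches, so ribosomal and transfer RNAs among the members could not be identified. A product was named for 10 of the 65 members, and the other 55 were listed as an unknown protein (7) or with no description (48), so they are called by identifier. By role these are 2 subunits of NADH dehydrogenase (complex I), 1 of cytochrome c oxidase (complex IV), 4 of ATP synthase, 1 cytochrome c assembly protein and 1 protein with an OB fold whose nuclear copy carries a ribosomal protein L2 domain. The last is a fragment with the catalytic domain of the large Rubisco chain, a plastid protein.

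The sequences below show why a level of such a gene must be read with care. Each is the start of a mitochondrial coding sequence in RefSeq assembly TAIR10.1, or the whole of it for atp9, printed 5′ to 3′ on the coding strand. The start codon is in capitals. The full coding sequence of each was found base for base in a gene of chromosome 2, so reads from within it cannot be assigned to either place. Positions are not given, because the authors' notes name the build TAIR10 and not TAIR10.1. The ring subunit of ATP synthase, atp9, is on the minus strand of the mitochondrial genome and has 225 bases, all of which recur in AT2G07671. The complex I subunit nad3 is on the plus strand and recurs in AT2G07751, cytochrome b (cob) is on the minus strand and recurs in AT2G07727, and the ribosomal protein rps12 is on the plus strand and recurs in AT2G07675. For these 3 the first 240 bases are shown.
atp9: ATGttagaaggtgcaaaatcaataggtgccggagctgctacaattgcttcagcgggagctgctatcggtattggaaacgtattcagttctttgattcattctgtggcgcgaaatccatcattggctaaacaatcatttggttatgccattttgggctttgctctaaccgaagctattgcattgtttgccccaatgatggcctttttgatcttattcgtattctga
nad3: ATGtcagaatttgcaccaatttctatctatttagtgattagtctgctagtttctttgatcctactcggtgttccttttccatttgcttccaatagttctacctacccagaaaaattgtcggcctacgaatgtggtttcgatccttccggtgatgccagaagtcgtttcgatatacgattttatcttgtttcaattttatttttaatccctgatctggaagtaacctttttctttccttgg
cob: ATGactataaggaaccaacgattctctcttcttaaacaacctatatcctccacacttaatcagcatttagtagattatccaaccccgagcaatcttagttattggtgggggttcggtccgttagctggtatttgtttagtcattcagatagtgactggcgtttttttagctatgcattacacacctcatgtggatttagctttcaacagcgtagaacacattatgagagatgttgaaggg
rps12: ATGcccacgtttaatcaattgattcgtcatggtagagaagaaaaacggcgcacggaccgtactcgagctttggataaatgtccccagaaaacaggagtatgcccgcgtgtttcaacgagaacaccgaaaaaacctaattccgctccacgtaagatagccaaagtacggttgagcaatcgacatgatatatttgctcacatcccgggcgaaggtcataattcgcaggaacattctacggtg

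Identical nuclear copies were frequent. Of 33 mitochondrial coding genes in TAIR10.1, 24 lie in 1 uninterrupted segment, and 13 of these recur whole and unchanged on chromosome 2. Of all 32-base words of the mitochondrial genome, 71.9% were found on a nuclear chromosome, and 71.6% on chromosome 2.

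The table divided these near-identical sequences unevenly between the mitochondrial and the nuclear row. For nad3, ATMG00990 had a median of 8.90 FPKM over the 20 libraries and AT2G07751 had 0.00403. For cob, the central subunit of the cytochrome bc1 complex, it was the other way round, with a median of 0.00229 FPKM for ATMG00220 and 4.90 for AT2G07727. For atp9 both rows were filled, with medians of 18.3 FPKM for ATMG01080 and 24.7 for AT2G07671. For rps12 the 2 rows held the same value in every library, with a median of 0.00135 FPKM. A row near 0 therefore did not show that the transcript was rare, and cob is outside the members although its nuclear row passes the same rule.

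Among 50 pairs of an ATMG row and a nuclear copy named in the annotation, 10 had both medians at 0.1 FPKM or more and 18 had both below. Only the nuclear row reached that level in 15 pairs and only the ATMG row in 7. In 10 pairs the values were identical in all libraries. The members' share of these pairs was 20, and in 12 of the 20 the nuclear row also passed the rule, as it did in 14 of the 30 pairs outside the members.

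**Figure D1:**
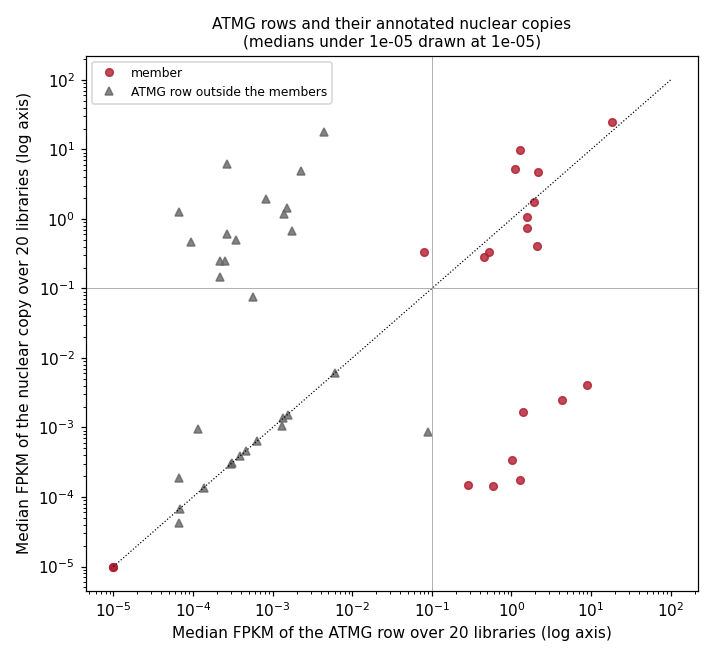
Median FPKM over 20 libraries of each ATMG row (horizontal, log axis) and of its annotated nuclear copy (vertical, log axis), with members as circles, other ATMG rows as triangles, grey lines at 0.1 FPKM and a dotted line of equal levels. Of 50 pairs, 15 lie at the upper left, where only the nuclear row is filled, and 7 at the lower right, where only the ATMG row is.

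The libraries were checked before the members were compared. The table gives no counts, and depth was estimated from the steps between low FPKM values, at 4.30 to 25.1 M (1 M is 1e+06) fragments in the MZ libraries and 12.8 to 50.5 M in the EZ libraries. Genes of dividing cells went against the zone names: all 6 listed had the higher mean in the EZ libraries, where their summed level was 45.1 to 175 FPKM, against 13.2 to 50.6 FPKM in the MZ libraries. The 5 root cap genes summed to 478 to 1667 FPKM in the MZ and 199 to 1036 FPKM in the EZ libraries, but 2 of the 5 (SMB and FEZ) had the higher mean in EZ. The 6 genes of differentiating cells summed to 408 to 1094 FPKM and 183 to 1312 FPKM, a sum carried by CASP1, and 1 of the 6 had the higher mean in EZ. Both lists of zone genes thus go against the labels. Whether the labels were exchanged was not tested, and libraries are named by their labels only. Genes of photosynthetic tissue summed to at most 12.2 FPKM in any library, while the plastid rows summed to 1706 to 8744 FPKM in the MZ and 5962 to 21792 FPKM in the EZ libraries. The part of cell makeup and depth in the differences below was not tested. In such sorted pools, fewer cells of a type and less RNA per cell cannot be told apart.

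Mitochondrial signal was concentrated in very few rows. All ATMG rows together took 0.438% to 2.54% of the summed FPKM of a library. ATMG00020 and ATMG00030 alone held 80.9% to 97.2% of that mitochondrial sum. Both ranges have their lowest value in EZ day 7 replicate 1, 1 of the 2 libraries that list ATMG00020 at 0. Without these 2 libraries, ATMG00020 and ATMG00030 held 93.4% to 97.2% of the mitochondrial sum. Whether ATMG00020 is a ribosomal RNA was not determined, since the annotation at hand does not describe it. The other members together held 215 to 1510 FPKM. By mean level 3 members stood at 100 FPKM or more, 10 from 10 to 100, 39 from 1 to 10 and 13 below 1. All 20 libraries had at least 1 FPKM for 13 members, and 26 members were listed at 0 in at least 1 library.

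ATMG00020, the row with the highest mean, was listed at exactly 0 in 2 libraries, replicate 1 of day 7 under either label. In the other 18 it ran from 4914 to 15221 FPKM in 9 MZ libraries, with a median of 7016, and from 8323 to 16551 FPKM in 9 EZ libraries, with a median of 12362. The ranges overlap, since 3 MZ libraries lie above the lowest EZ value: replicate 2 of day 7 at 15221 FPKM and both of day 3, at 8407 and 11314 FPKM. Among 1426 genes with a median of at least 100 FPKM, 9 were listed at 0 somewhere, 6 of them plastid rows, so a 0 in such a row is not read as absence. Over all libraries the zone difference was 0.63 ± 1.61 on the log2(FPKM + 1) scale (SE, n = 20, adjusted p = 0.802 by limma), and without both libraries at 0 it was 0.58, with an adjusted p of 0.117. With a block of age and replicate number it was called (adjusted p = 0.0231 by limma). There the 2 libraries at 0 share a block, so their zeros count as no difference between the labels.

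ATMG00030 had values in every library, from 1087 to 7788 FPKM with the MZ label (median 2320) and from 1870 to 5987 FPKM with the EZ label (median 2689). The highest were MZ day 3 replicate 2 at 7788 FPKM, MZ day 7 replicate 1 at 7396 FPKM and EZ day 7 replicate 2 at 5987 FPKM. ATMG01390 followed with 99.7 to 524 FPKM in the MZ and 155 to 246 FPKM in the EZ libraries. Its MZ values were uneven: both day 7 libraries (524 and 408 FPKM) and MZ day 3 replicate 2 (301 FPKM) lay above the highest EZ library.

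Just inside the rule, ATMG01250, ATMG00710, ATMG01030 and ATMG01410 reached 1 FPKM in exactly 2 libraries, with highest values of 1.97, 1.49, 1.84 and 1.15 FPKM. Just outside, ATMG00470, ATMG00520 and ATMG00820 did so in 1 library, at 2.87, 1.41 and 1.29 FPKM. Of the 76 rows outside, 11 were at 0 everywhere, 52 stayed below 0.1 FPKM in every library, and 13 reached 0.1 FPKM in at least 1.

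**Figure D2:**
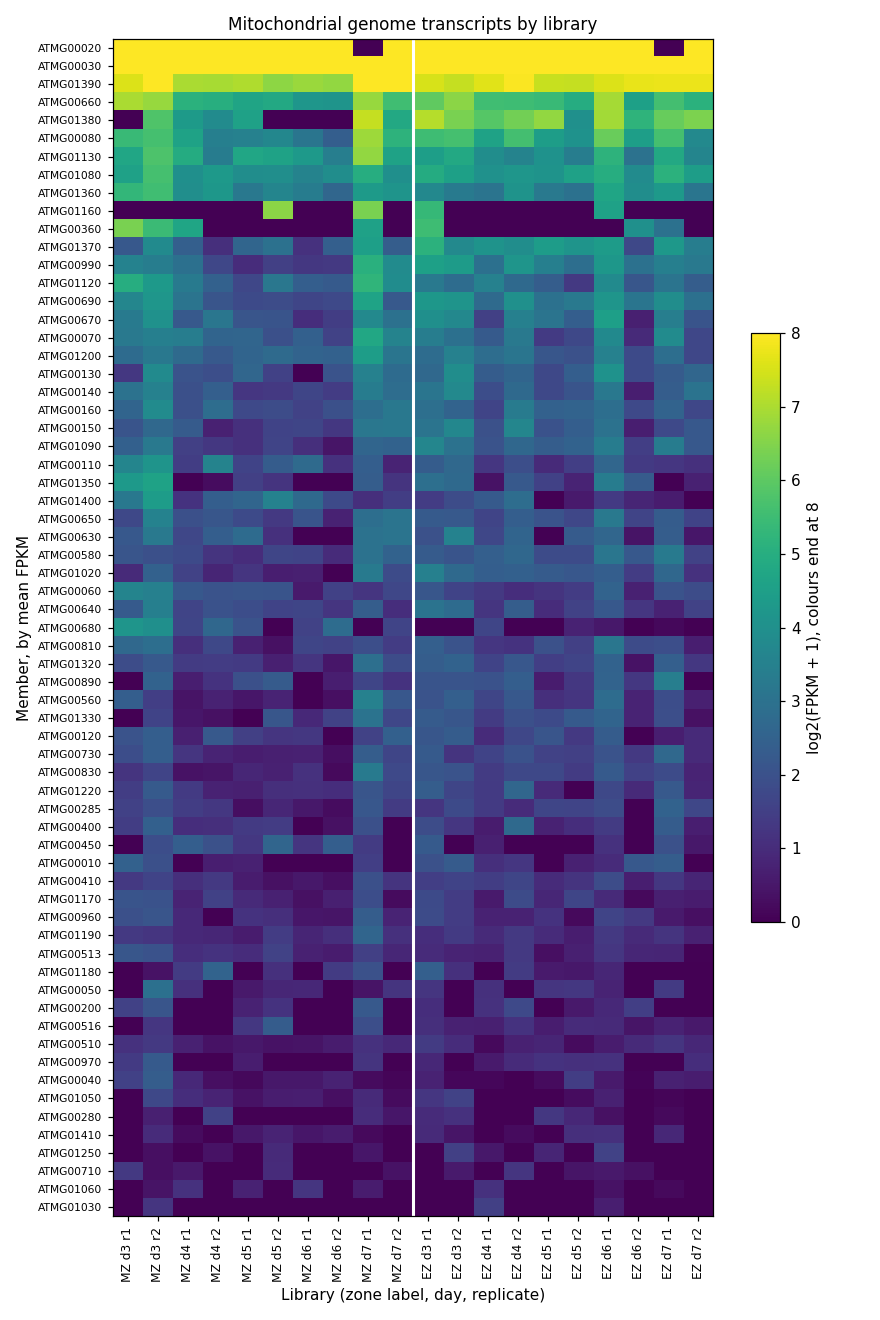
Level of each of the 65 members (rows, by falling mean) in each of the 20 libraries (columns, MZ left of the white line, EZ right of it) as log2(FPKM + 1), with the colour scale ending at 8. ATMG00020 has the lowest colour in the 2 libraries that list it at 0, and the member median, from 0.75 to 2.53, is highest in replicate 2 of MZ day 3.

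Members tended to be high or low together in single libraries. The median over the 65 members was 2.53 on the log2(FPKM + 1) scale in MZ day 3 replicate 2, 2.51 in EZ day 6 replicate 1 and 2.37 in MZ day 7 replicate 1. It was lowest in both MZ libraries of day 6, at 0.93 and 0.75, and in replicate 2 of EZ at days 7 and 6, at 0.90 and 0.96. High and low libraries occurred under both labels, and the 2 libraries of EZ day 6 stood at opposite ends of the range.

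At day 7, replicate 1 was above replicate 2 under both labels, at 2.37 against 1.66 in MZ and 2.00 against 0.90 in EZ. Both day 7 replicate 1 libraries are also those that list ATMG00020 at 0. The median over all 22335 genes that meet the same rule was also higher in replicate 1 of day 7, at 2.68 against 2.39 in MZ and 3.17 against 2.88 in EZ, and ran from 2.39 to 3.26 over the 20 libraries. Between 30 and 58 members reached 1 FPKM in a library. MZ day 7 replicate 1 held the highest value of 17 members, MZ day 3 replicate 2 of 13 and MZ day 3 replicate 1 of 8. The same count was not made over all tested genes, so it is not read as a trait of the members.

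The annotated nuclear copies were high in the same libraries. Their summed level was 288 FPKM in MZ day 3 replicate 2, 262 in MZ day 7 replicate 1, 226 in MZ day 3 replicate 1 and, with the EZ label, at most 179 (day 6 replicate 1), against a median of 93.9 FPKM over the 20 libraries. The plastid sum was high in MZ day 3 replicate 2 (8744 FPKM) and MZ day 7 replicate 1 (7699 FPKM), and with the EZ label in EZ day 3 replicate 1 (21792 FPKM) and EZ day 6 replicate 1 (14404 FPKM). The part of these library-wide shifts in any zone or age difference was not tested. The 2 replicates of a group differed by a median of 0.55 log2 units for members and by 0.51 for 14547 other genes of like mean level.

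**Figure D3:**
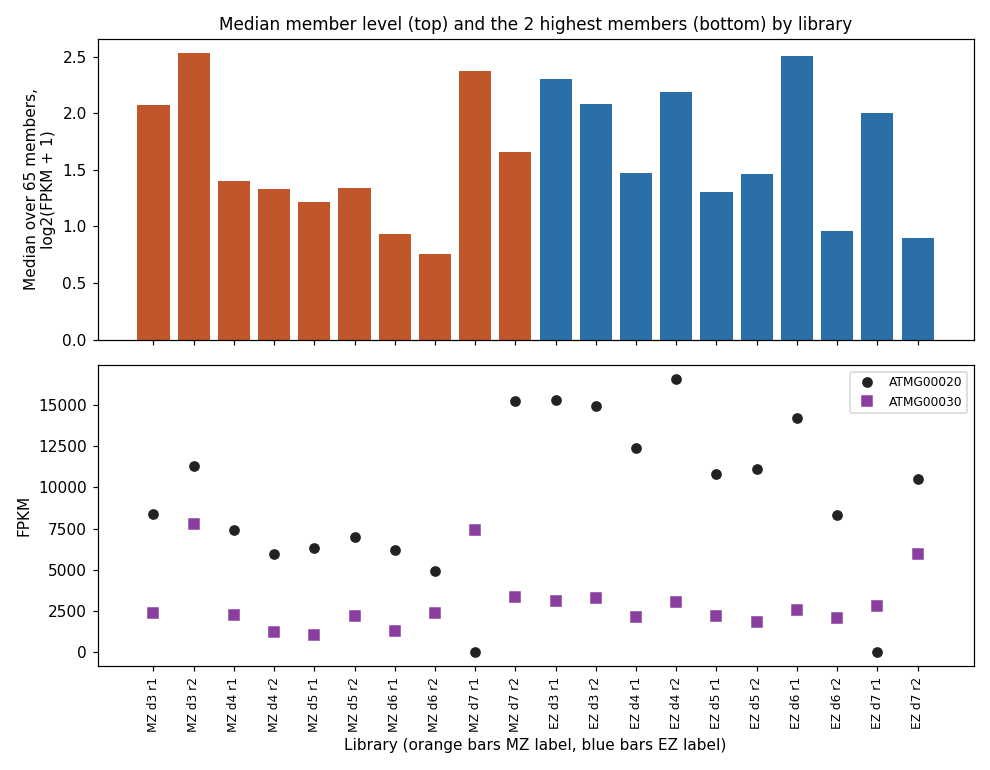
Top, the median of log2(FPKM + 1) over the 65 members in each library, with MZ libraries as orange and EZ libraries as blue bars from 0. Bottom, FPKM of ATMG00020 (circles) and ATMG00030 (squares) in the same libraries; the median runs from 0.75 to 2.53, and ATMG00020 is at 0 in replicate 1 of day 7 under both labels.

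The first comparison asked which members differ between sections labelled as the zone of division and as the zone of elongation. Of the 65 members, 6 were higher and 2 were lower in the EZ libraries over the 5 ages. These calls were made at an adjusted p of 0.05 (limma, Benjamini-Hochberg over 22335 genes). They make up 9.23% and 3.08% of the members, where 20.6% of all tested genes were called higher and 7.77% lower. After quantile normalisation the balance turned, to 3 members higher and 10 lower. Over all tested genes 5597 were then called, 49.9% of them higher. An unadjusted p of 0.05 by limma was passed by 13 members and by 8913 of the 22335 tested genes. The median difference was 0.12 over the members and 0.15 over all tested genes, on the log2(FPKM + 1) scale as EZ minus MZ. All 10 EZ libraries lay above all 10 MZ libraries for 0 members and below them for 0, against 0.927% and 0.139% of all tested genes. All differences below are on this scale, which understates the change of low genes, and come from the same fit.

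Of the 6 higher members 2 have a product named in the annotation at hand. ATMG00990, the complex I subunit nad3, ran from 1.02 to 32.5 FPKM in the MZ libraries (median 4.48) and from 6.46 to 22.4 FPKM in the EZ libraries (median 9.94). At days 4, 5 and 6 every MZ library was at 6.72 FPKM or less and all but 1 EZ library above that, while both day 7 MZ libraries, at 32.5 and 13.6 FPKM, were above both of EZ, at 9.99 and 8.34 FPKM. The difference was 1.07 ± 0.25 (SE, n = 20, adjusted p = 0.00553 by limma). The nuclear row with the same coding sequence stayed at or below 0.0242 FPKM, so nearly all assigned signal is in this row.

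ATMG01090, annotated as ATP synthase 9, ran from 0.373 to 8.41 FPKM in the MZ libraries (median 1.99) and from 1.81 to 11.8 FPKM in the EZ libraries (median 5.07). The groups overlap through the MZ libraries of day 3, at 4.47 and 8.41 FPKM, and of day 7, at 5.14 and 4.77 FPKM, and through the lowest EZ library, at 1.81 FPKM. The difference was 0.88 ± 0.26 (SE, n = 20, adjusted p = 0.0222 by limma). Without EZ day 3 replicate 1 the adjusted p was 0.0512, without both libraries that list ATMG00020 at 0 it was 0.0653, and after quantile normalisation it was 0.160.

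The other 4 higher members have no description in the annotation at hand, which does not mean that they lack a known product. ATMG01380 was listed at 0 in 4 MZ libraries and had at most 158 FPKM there (median 16.4), against 15.3 to 138 FPKM in the EZ libraries (median 80.5). The libraries at 0 were MZ day 3 replicate 1, MZ day 5 replicate 2 and both of MZ day 6. Of these 4, 3 have the lowest depths, 4.30, 6.21 and 6.59 M fragments, and MZ day 6 replicate 2 has 13.9 M. Whether depth plays a part in these zeros was not tested. Its difference was 3.04 ± 0.71 (SE, n = 20, adjusted p = 0.00576 by limma), a value that rests on those zeros and was 4.37 with a pseudocount of 0.1.

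ATMG01370 ran from 1.12 to 22.1 FPKM in the MZ (median 4.36) and from 2.31 to 34.2 FPKM in the EZ libraries (median 16.5). Apart from 2 high MZ libraries (13.1 FPKM in replicate 2 of day 3 and 22.1 FPKM in replicate 1 of day 7) and 1 low EZ library (2.31 FPKM in replicate 2 of day 6), MZ stayed at 6.91 FPKM or less and EZ lay above that. Its difference was 1.37 ± 0.40 (SE, n = 20, adjusted p = 0.0184 by limma).

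ATMG01020 ran from 0 to 8.61 FPKM in the MZ (median 1.12) and from 1.23 to 10.2 FPKM in the EZ libraries (median 4.23), a difference of 0.97 ± 0.30 (SE, n = 20, adjusted p = 0.0241 by limma). ATMG00690 ran from 2.20 to 24.0 FPKM in the MZ (median 3.54) and from 5.76 to 17.9 FPKM in the EZ libraries (median 11.3), a difference of 0.85 ± 0.30 (SE, n = 20, adjusted p = 0.0451 by limma). In both, MZ day 7 replicate 1 and MZ day 3 replicate 2 reached EZ levels. Both calls are fragile: after quantile normalisation the adjusted p was 0.167 for ATMG01020 and 0.133 for ATMG00690, and leaving out a single library raised it to as much as 0.0545 and 0.0958.

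The 2 lower members also have no description in that annotation. ATMG00680 ran from 0 to 17.2 FPKM in the MZ libraries (median 2.65) and from 0 to 2.21 FPKM in the EZ libraries, where it was listed at 0 in 6 of 10. Both MZ libraries of day 3, at 17.2 and 14.7 FPKM, stood above all others. The difference was -1.75 ± 0.33 (SE, n = 20, adjusted p = 0.00159 by limma).

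ATMG01400 ran from 1.12 to 20.3 FPKM in the MZ libraries (median 4.72) and from 0 to 6.26 FPKM in the EZ libraries (median 1.16). The difference was -1.27 ± 0.26 (SE, n = 20, adjusted p = 0.00234 by limma). The groups overlap: both EZ libraries of day 4, at 3.76 and 6.26 FPKM, lie above 4 MZ libraries, among them both of day 7, at 1.12 and 1.74 FPKM. Both lower calls held in every alternative run, from -1.95 to -1.55 for ATMG00680 and from -1.39 to -1.14 for ATMG01400 when single libraries were left out.

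**Figure D4:**
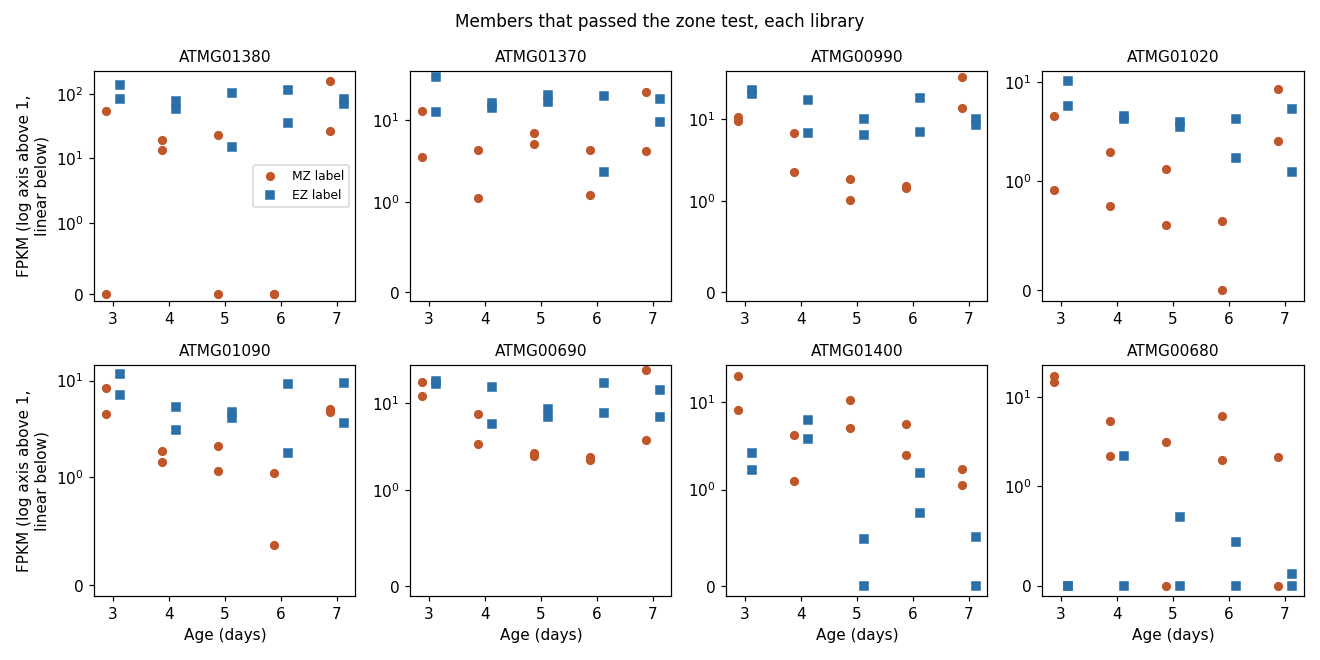
FPKM of the 8 members that passed the zone test in each library by age in days, MZ as orange circles and EZ as blue squares, on an axis that is logarithmic above 1 FPKM and linear below. The labels overlap in each panel: MZ day 7 replicate 1, at 158 FPKM for ATMG01380 and 32.5 FPKM for ATMG00990, is above every EZ library of those members.

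The other members with a product named here did not pass. ATMG01080, the ATP synthase ring subunit shown above, ran from 10.9 to 49.0 FPKM in the MZ (median 14.7) and from 13.5 to 34.0 FPKM in the EZ libraries (median 21.7), a difference of 0.20 ± 0.20 (SE, n = 20, adjusted p = 0.485 by limma). Its nuclear row AT2G07671, with the same coding bases, ran from 5.97 to 33.0 FPKM (median 16.4) and from 23.4 to 45.3 FPKM (median 28.8), and that row passed, at 0.95 ± 0.25 (SE, n = 20, adjusted p = 0.0110 by limma). With both rows added, the difference was 0.59 ± 0.19 (SE, n = 20, adjusted p = 0.0348 by limma). The call for this sequence thus depended on the row that is read.

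Cytochrome c oxidase subunit 3, ATMG00730, behaved alike, at 0.234 to 4.25 FPKM in the MZ (median 1.03) and 0.934 to 5.50 FPKM in the EZ libraries (median 2.03). Its own difference was 0.46 ± 0.25 (SE, n = 20, adjusted p = 0.188 by limma), that of its nuclear row AT2G07687 0.61 ± 0.20 (adjusted p = 0.0364) and that of their sum 0.71 ± 0.24 (adjusted p = 0.0364). The cob row of chromosome 2, AT2G07727, also passed, at 0.80 ± 0.22 (SE, n = 20, adjusted p = 0.0153 by limma), with 0.690 to 11.7 FPKM in the MZ and 2.82 to 14.4 FPKM in the EZ libraries. Summing each of the 20 members with its copy gave 8 higher and 3 lower members of 65. Over all tested genes 6335 were then called, 72.6% of them higher. The added lower member was ATMG00400, whose nuclear row AT2G07835 differed by -1.72.

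Among the rest, ATP synthase subunit 1 (ATMG01190), the alpha subunit, had 0.541 to 5.15 FPKM in the MZ and 0.571 to 1.54 FPKM in the EZ libraries, a difference of -0.15 ± 0.21 (SE, n = 20, adjusted p = 0.644 by limma). The proton channel subunit ATMG00410 (ATPase subunit 6) differed by 0.27 ± 0.19, the second complex I subunit ATMG01320 (NADH dehydrogenase 2B) by 0.29 ± 0.28 and the cytochrome c assembly protein ATMG00960 by -0.13 ± 0.22. The ribosomal protein L2 domain row ATMG00560 differed by 0.45 ± 0.29 and the Rubisco fragment ATMG00280 by 0.12 ± 0.19, and the highest row described as unknown, ATMG01220, by 0.12 ± 0.26. None of these 7 passed in this fit, with adjusted p values by limma from 0.262 to 0.765. After quantile normalisation ATMG01190 was called lower, at -0.56 (adjusted p = 0.0478 by limma).

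The next members by size were not called in this fit, although ATMG00080, ATMG00110 and ATMG01130 were with a block of age and replicate number (adjusted p = 0.0397, 0.0447 and 0.0275 by limma). After quantile normalisation ATMG00450, ATMG00110, ATMG01120 and ATMG00513 were called lower (adjusted p from 0.00164 to 0.0293). ATMG00513 was also called lower with a pseudocount of 5, without a filter and with median-of-ratios scaling (adjusted p = 0.0434, 0.0453 and 0.0278 by limma). With that scaling ATMG01120 was called too (adjusted p = 0.0486). With the EZ label ATMG00080 was higher by 0.61 ± 0.30 (adjusted p = 0.146 by limma). On the lower side stood ATMG00450 at -0.86 ± 0.38, ATMG00360 at -0.86 ± 0.84, ATMG00110 at -0.68 ± 0.33, ATMG01120 and ATMG01130 at -0.63 each and ATMG00513 at -0.48 ± 0.18 (adjusted p = 0.0626 by limma). ATMG00360 and ATMG01160 owe their means to few libraries: ATMG01160 was at 96.8 and 82.3 FPKM in 2 MZ libraries and at 40.5 and 22.8 FPKM in 2 EZ libraries, and below 0.1 FPKM in the other 16. ATMG00360 reached 1 FPKM in 7 libraries, at most 82.3 FPKM in MZ day 3 replicate 1, and was listed at 0 in 12.

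**Figure D5:**
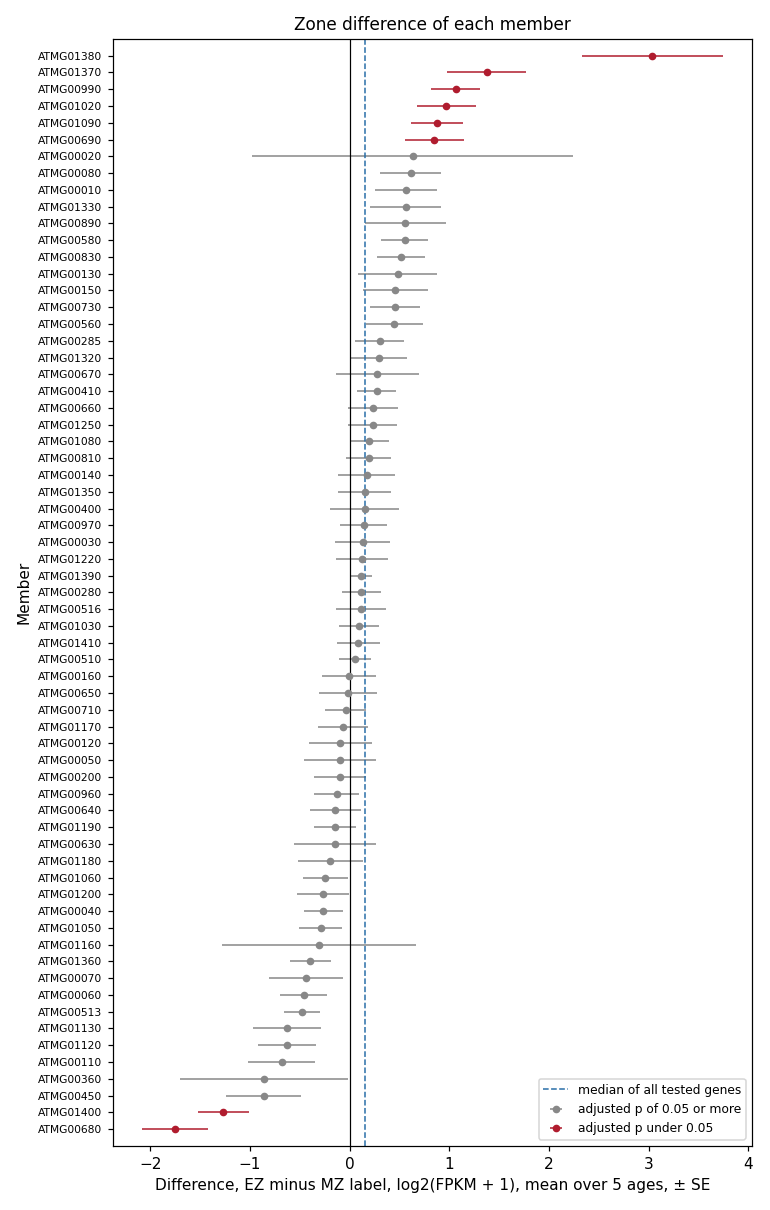
Difference between EZ and MZ libraries for each of the 65 members (rows), as the mean over 5 ages on the log2(FPKM + 1) scale with its SE as a bar; red points passed an adjusted p of 0.05, and the dashed line marks the median of all tested genes at 0.15. The 6 higher members are led by ATMG01380 at 3.04, and the 2 lower are ATMG01400 at -1.27 and ATMG00680 at -1.75.

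At single ages, with 2 libraries against 2, 2 members were called at day 3 and 0 at days 4, 5, 6 and 7. Among all tested genes, 2.06% were called at day 3, 0.0179% at day 4, 0.278% at day 5, 0.278% at day 6 and 0.094% at day 7. Of the members, 12, 5, 5, 16 and 7 passed an unadjusted p of 0.05 at the 5 ages in turn. Of all 22335 tested genes, 4588, 2299, 4220, 3524 and 3091 did. Both calls at day 3 were lower with the EZ label. ATMG00680 differed by -4.08 ± 0.74 (SE, 2 libraries against 2 with the spread of all 20, adjusted p = 0.0309 by limma). ATMG01360, at 38.3 and 45.9 FPKM in MZ and 12.3 and 8.54 FPKM in EZ, differed by -1.93 ± 0.45 (SE, likewise 2 against 2, adjusted p = 0.0473 by limma). The count at day 3 was 0 without any 1 library of day 3 or any 1 EZ library of day 5, and 1 without any 1 MZ library of day 4, 5 or 7.

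The median difference of the members moved between ages, from -0.04 at day 3 to 0.32 at day 4, 0.07 at day 5, 0.58 at day 6 and -0.53 at day 7. That of all tested genes was 0.12, 0.04, 0.17, 0.11 and 0.28. The values at days 6 and 7 rest on groups whose members were low in both MZ day 6 libraries and high in MZ day 7 replicate 1.

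The second comparison asked whether members change with age. No linear trend passed: 0 of 65 within MZ, 0 within EZ and 0 over both labels by limma, where 0.918%, 0.0134% and 0.242% of all tested genes were called. At an unadjusted p of 0.05 the counts were 11, 6 and 13 members, and 2897, 1860 and 3685 of all 22335 tested genes. The median slope per day was -0.09 in MZ, -0.12 in EZ and -0.09 over both, against -0.05, -0.02 and -0.04 over all tested genes. A slope above 0 over both labels was found for 11 of 65 members and for 8317 of 22335 tested genes.

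The smallest p values for a fall belonged to rows that were high at day 3. ATMG00060 reached 11.2 FPKM in MZ at day 3 and was at 0.483 to 3.65 FPKM in the later MZ libraries, a slope of -0.52 ± 0.12 per day within MZ (SE, adjusted p = 0.0561 by limma). ATMG01350 went from 19.2 and 23.3 FPKM in MZ day 3 to 4.19 FPKM or less later and had -0.55 ± 0.13 within MZ (adjusted p = 0.0793) and -0.44 ± 0.09 over both labels (adjusted p = 0.0587). ATMG01400 had -0.44 ± 0.09 over both (adjusted p = 0.0553), ATMG00680 -0.65 ± 0.17 within MZ (adjusted p = 0.0934) and ATMG00640 -0.31 ± 0.09 over both (adjusted p = 0.120). Several settings moved ATMG00060, ATMG01350 and ATMG01400 across the threshold. ATMG00680 crossed it within MZ with a pseudocount of 5 (adjusted p = 0.0208 by limma). ATMG00640 did not cross it in any setting run. Over both labels, ATMG01400 and ATMG01350 crossed it with the replicate number as a block (adjusted p = 0.0411 and 0.0485), without EZ day 6 replicate 1 (0.0454 and 0.0422) and without both libraries that list ATMG00020 at 0 (0.0437 and 0.0378), the last chosen after the values were seen. Within MZ, ATMG00060 crossed it with library weights (adjusted p = 0.0378) and with a pseudocount of 5 (0.0211), as ATMG01350 did with that pseudocount (0.0153).

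Rises were smaller. ATMG01390 had 0.17 ± 0.06 per day within MZ (adjusted p = 0.203 by limma), which follows its high day 7 libraries, and 0.11 ± 0.04 over both labels (adjusted p = 0.178). ATMG01330 had 0.40 ± 0.18 within MZ (adjusted p = 0.359) and ATMG00830 0.25 ± 0.12 (adjusted p = 0.406). ATMG00580 had 0.09 ± 0.08 over both. Within EZ the smallest adjusted p was 0.503, for ATMG01400 at -0.42 ± 0.13, and the rises of ATMG01360 (0.12 ± 0.10) and ATMG00040 (0.07 ± 0.10) were about the size of their error.

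The third comparison asked whether the zone difference itself changes with age. By limma, 0 of 65 members passed for its trend and 0 for any change, where 0.00895% and 0.0448% of all tested genes did. An unadjusted p of 0.05 was passed by 7 and 13 members, and by 1364 and 1032 of all 22335 tested genes. ATMG00060 had the smallest p of the rises, at 0.58 ± 0.17 per day (adjusted p = 0.510), then ATMG01360 at 0.46 ± 0.14 and ATMG00040 at 0.43 ± 0.14, whose MZ levels were highest at day 3. The falls with the smallest p were ATMG01330 at -0.61 ± 0.25, ATMG00150 at -0.54 ± 0.23 and ATMG00830 at -0.37 ± 0.17. For any change the smallest adjusted p was 0.154, for ATMG01390.

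The nuclear genes that serve the mitochondrial genome were set beside its transcripts. Of 11 tested genes for mitochondrial transcription and RNA processing, 9 were higher and 0 lower with the EZ label, with a median difference of 1.32, against 20.6% of all tested genes called higher and a median of 0.15. RPOTM (AT1G68990), the mitochondrial RNA polymerase, ran from 0.896 to 6.02 FPKM in the MZ and from 4.65 to 15.3 FPKM in the EZ libraries, a difference of 1.63 ± 0.28 (SE, n = 20, adjusted p = 0.000853 by limma). MORF8 (AT3G15000), an RNA editing factor, ran from 6.43 to 61.3 FPKM and from 42.6 to 122 FPKM, a difference of 2.16 ± 0.36. The splicing factor NMAT2 (AT5G46920) differed by 1.32 ± 0.22 and MTPNPASE (AT5G14580), which trims and degrades mitochondrial RNA, by 1.95 ± 0.36.

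Of 8 genes for mitochondrial DNA maintenance, 5 were higher and 0 lower, with a median of 1.28, beside the same 20.6% and 0.15 over all tested genes. Among them TWINKLE (AT1G30680), the replicative helicase, differed by 1.54 ± 0.23 and POLIB (AT3G20540), a DNA polymerase of the organelles, by 1.16 ± 0.24. Of 16 tested genes for nuclear-encoded respiratory subunits and partners, 0 were higher and 4 lower, with a median of -0.14, where 7.77% of all tested genes were called lower. These 4 were SDH1-1 (AT5G66760), a complex II subunit, at -0.43 ± 0.11, MPPALPHA1 (AT1G51980), a subunit of the processing peptidase, at -0.42 ± 0.12, the ATP synthase subunit ATPDELTA (AT5G47030) at -0.33 ± 0.10 and AOX1A (AT3G22370), the alternative oxidase, at -0.80 ± 0.26. The members' median of 0.12 lay between those of the respiratory list and of the RNA list. Whether the lists differ was not tested.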

How the data were processed

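RNA of sorted root cells was made into cDNA with a low-input kit, per the labels' protocols. The submitters' processing notes name TopHat2 2.0.13, Cufflinks 2.1.1 and TAIR10, with no roles or settings. The deposited table holds FPKM made by the authors, and no counts. How reads with several matches were shared is not given in the sources used here.

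The 22335 genes that meet the members' own rule were fitted with limma 3.58.1 in R 4.3.3 on log2(FPKM + 1), as 10 group means with a variance trend and 1 shared spread (10 residual degrees of freedom). Two-sided p values were adjusted by Benjamini-Hochberg within each contrast, over every gene fitted, and called at 0.05. The fit was tested on simulated data. Depth was estimated from steps in low FPKM values of 5390 transcripts of at least 2000 bp. In a library 145 to 828 values came to between 0.6 and 4.5 fragments, and 71.7% to 89.6% of these were whole to within 0.1. Depth was chosen for this closeness, so the share is not an independent check. One fragment on 1 kb was then worth 0.0198 to 0.233 FPKM, which bounds the precision of low rows (counting error only).

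Products and nuclear copies of ATMG identifiers came from notes in the RefSeq annotation of TAIR10.1. Its mitochondrial genes carry other identifiers, so no sequence or length was assigned to an ATMG row directly. Named members are, by rule, the highest of each role, the 8 largest zone differences each way, up to 3 each way with the smallest p for each trend and for its change between labels, and ATMG01190. ATMG00030, ATMG01160, ATMG00400, ATMG00410 and ATMG01320, the 4 members just inside the rule and the rows outside it were named after their values were seen. The members and lists were chosen with earlier results of these data known. Alternatives were pseudocounts of 0.1 and 5, 2 other filters, 4 scalings, library weights, replicate blocks and leaving out each library.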

Additional observations from a re-analysis of the deposited data

Results flagged for a closer look

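Examined were 72 sets of 10 libraries of 1 label (named members and library summaries). In 7 of them a library was set apart from the others by a gap above Dixon's critical share of the range. That share is set so that about 1 in 20 samples of normal values from 1 condition pass. These sets pool the ages, hold zeros and share libraries, so 7 of 72 cannot be read against that rate. Values are on the log2(FPKM + 1) scale. ATMG00020 was listed at 0 in replicate 1 of day 7 under both labels, with the next lowest library at 12.26 for MZ and 13.02 for EZ. MZ day 7 replicate 1 also stood above the other MZ libraries for ATMG01190, the alpha subunit of ATP synthase (2.62, next 1.42), and for ATMG00830 (3.30, next 1.75). In the EZ libraries, day 6 replicate 2 was low for ATMG01370 (1.73, next 3.39), day 4 replicate 1 was high for ATMG00680 (1.68, next 0.76) and day 5 replicate 2 was high for ATMG00040 (1.47, next 0.76).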

How the results depend on the processing

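The count of members higher with the EZ label (6) was 3 after quantile normalisation and 1 when rescaled to the mitochondrial sum, and 3 to 9 when single libraries were left out (3 without EZ day 3 replicate 1). Rescaling to that sum, most of which is ATMG00020 and ATMG00030, left ATMG00990 at 0.77 (adjusted p = 0.210 by limma) and ATMG01370 at 1.04 (0.146). Without ATMG00020 in the sum both stayed called, while ATMG01090 (0.0938) and ATMG00690 (0.114) did not. The count lower (2) was 10 after quantile normalisation, 5 with median-of-ratios scaling and 2 to 3 with a library left out. Quantile normalisation moved the median of all genes from 0.15 to -0.06 and of members from 0.12 to -0.21, and 49.9% of all calls were higher, against 72.6% before. With median-of-ratios scaling that share was 58.3%, and rescaled to the mitochondrial sum 50.7%. The main fit called 6334 genes in all and quantile normalisation 5597. Median-of-ratios scaling called 6577, and rescaling to the mitochondrial sum 1345.

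At day 3 the count (2) was 0 with a pseudocount of 0.1 and 6 with 5, 1 without a filter, 6 after quantile normalisation, 7 with library weights and 0 when rescaled to the mitochondrial sum with or without ATMG00020. It was 1 without both libraries that list ATMG00020 at 0, and 0 to 3 with 1 library left out. At day 5 (0) it was 1 after quantile normalisation, with median-of-ratios scaling or rescaled without ATMG00020, and 2 with library weights. At day 6 (0) it was 1 without a filter and 2 rescaled without ATMG00020. With 1 library left out, days 5, 6 and 7 each gave 0 to 1. The MZ trend (0) gave 3 with a pseudocount of 5, 1 with library weights and 0 to 1 with a library left out. The trend over both labels (0) gave 1 with a pseudocount of 5 or a filter at 5 FPKM, 3 without both libraries at 0, and 0 to 3 with 1 library left out (3 without EZ day 6 replicate 1, and 1 without MZ day 7 replicate 1 or without EZ day 4 replicate 1). Any change of the zone difference (0) gave 1 without a filter. For single ages and trends, the share of all tested genes called was not computed under these settings. The counts are therefore not read as a result about the members. The cause of these changes was not tested.

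Differences near 0 changed sign. ATMG01220 was -0.032 with a pseudocount of 0.1, -0.28 after quantile normalisation and -0.058 rescaled to the mitochondrial sum, ATMG00280 was -0.10 after quantile normalisation and ATMG01080 -0.18 rescaled to that sum. Without both libraries at 0, ATMG00960 was 0.0017, and the trends of ATMG00830 (-0.067) and ATMG00580 (-0.016) over both labels and of ATMG01360 within EZ (-0.0077) turned. With single libraries left out, the zone difference of ATMG00020 ran from -0.76 to 2.02, of ATMG00280 from -0.039 to 0.27, of ATMG00960 from -0.29 to 0.026, of ATMG01190 from -0.30 to 0.0045 and of ATMG01220 from -0.020 to 0.26. The trend of ATMG00830 over both labels then ran from -0.015 to 0.14 and of ATMG01360 within EZ from -0.0077 to 0.24.

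Replicate numbers were not taken as pairs, since replicate differences of the 2 labels did not correlate at every age: across all genes at 0.01, 0.28, 0.07, 0.03 and 0.35 for days 3 to 7, and across members at 0.04, 0.16, 0.13, -0.01 and 0.78. At day 7 same-numbered libraries did deviate together across all genes. The day 7 value of the members includes ATMG00020, listed at 0 in replicate 1 under both labels, and was not computed without that row. That correlation is therefore not read as a shared shift of the members. The member median was nonetheless higher in replicate 1 of day 7 under both labels, as was that of all tested genes. A replicate block of the number gave 1 call at day 5 and 2 for the trend over both labels. A block of age and number gave 1 at day 5 and 4 lower, and called ATMG00020 and ATMG00080 higher. Over all tested genes that block called 7029 for the zone difference, 67.0% of them higher. A comparison of members by shared 32-base words was not run, since no sequence is paired with ATMG identifiers here. Of the 45 members with no annotated nuclear copy, 4 were called higher and 2 lower, beside 20.6% and 7.77% of all tested genes. Low depth limits rows near 0, most of all in the 3 shallowest MZ libraries.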
